A study of Mus musculus with 26 samples.

Results

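The transcriptional response to neural differentiation was measured in parental E14 cells, an established male mouse embryonic stem cell (ESC) line that carried no engineered allele and received no CTCF degron or doxycycline treatment. These 6 libraries, of 26 in the series, were chosen by their labels: 3 of undifferentiated ESCs and 3 of cells labelled neural progenitor cells (NPCs) after 2 days of differentiation. Per the labels and methods, ESCs grew on gelatin in N2B27 medium with 3% serum, leukemia inhibitory factor (LIF), 3 µM CHIR99021, which activates Wnt signaling by inhibiting GSK3, and 1 µM PD0325901, which inhibits MEK. NPCs were seeded at about 15000 cells per cm2 on plates coated with 10 µg/ml laminin, in N2B27 that is named without LIF or either inhibitor. The change of state and the change of medium therefore cannot be told apart in this design. The same differentiation was also sequenced in other lines, of which 3 are compared here, and none of them shares a library with parental E14. Podxl pA and Grb10 pA (3 ESC and 3 NPC libraries each) are E14 clones with a homozygous insert of a self-cleaving peptide, eGFP and an SV40 polyadenylation signal that truncates the RNA of the named gene. The WT rescue line (2 ESC and 2 NPC libraries) carries a CTCF degron and doxycycline-inducible wild-type CTCF, and was treated for 24 h with 1 µM 5-Ph-IAA and 1 µg/ml doxycycline.

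Mouse ESCs held with LIF and both inhibitors are kept in the naive state, which resembles the epiblast before implantation. LIF acts through the transcription factor STAT3, CHIR99021 stabilizes β-catenin, and PD0325901 blocks the signal from FGF receptors to ERK. When these are withdrawn, cells leave the naive state, pass through a formative state that resembles the early postimplantation epiblast, and become competent to form neuroectoderm, of which the transcription factor Sox1 is an early marker, or other lineages.

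The 6 libraries held 2530435 to 6513043 reads counted on genes. Values below are normalized counts, the counts scaled by library size and TMM factor to a common library of 4664294 reads. Log-scale correlations were 0.978 to 0.987 between libraries of a group and 0.898 to 0.910 between groups, and the first principal component, with 79.1% of the variance, separated ESCs from NPCs. In ESC replicate 1, a single rRNA entry (CT010467.1) took 4.29% of the counts, against 0.0314% to 0.252% in the other 5 libraries. The labels do not say that replicates are separate cultures, so p-values measure the spread between libraries, which may be technical. For parental E14 that spread was estimated within groups over 18 libraries, those of Podxl pA and Grb10 pA included. In bulk RNA, fewer cells of a type and less RNA per cell cannot be told apart.

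A total of 13268 genes passed a filter on low counts and were tested with edgeR's quasi-likelihood test. A gene counted as called where the p-value, adjusted by Benjamini-Hochberg over all tested genes, did not exceed 0.05 and the log2 fold change (NPC minus ESC) reached 0.5 in either direction. Of these genes, 2186 (16.5%) were called higher and 2165 (16.3%) lower in NPCs, 4351 (32.8%) in all, and these shares are the background for each list below. The median log2 fold change of all genes was −0.01. Large changes were more often rises than falls: 564 genes rose and 372 fell by at least 4-fold, and 273 rose and 149 fell by at least 8-fold. Of the tested genes, 22 had no read in ESCs and 12 had none in NPCs, so that their fold changes are poorly measured. Among called genes averaging 100 or more, without overlap between the states, 752 rose and 1056 fell. Whether the excess of large rises holds for such well-measured genes was not tested. The 3 libraries of NPCs lay outside the range of the 3 ESC libraries for 2104 of the 2186 higher and 2076 of the 2165 lower genes. The same libraries gave the calls, so this separation is not independent of the calling and is no separate support.

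Among genes whose mean reached 100 normalized counts, the strongest rise was that of Car4 (chr11:84957786-84966044 of mm10), a membrane-bound carbonic anhydrase. Its normalized counts were 1.01, 0 and 0 in ESCs and 698, 679 and 675 in NPCs. With 1 read in ESCs and 1851 in NPCs, the ratio was 1909, with a 95% exact interval of 342 to 75461 for counting error only. H19 (chr7:142575529-142578143), a maternally expressed imprinted RNA, had 1 read in ESCs and 1088 in NPCs, a ratio of 1122 (201 to 44372). Its NPC level was higher in parental E14, at 283, 442 and 435, than in the truncation lines. There it was 47.8, 58.6 and 60.4 in Podxl pA NPCs and 36.1, 60.2 and 65.9 in Grb10 pA NPCs. The difference in response from Podxl pA, whose ESCs also held almost no H19 reads, was not called. Cubn (chr2:13276338-13491813), which encodes the endocytic receptor cubilin of visceral endoderm and kidney, went from 2.03, 3.18 and 0 to 1099, 1659 and 1123. Thbs1, the matrix protein thrombospondin 1, had 2 reads in ESCs and 780 in NPCs, a ratio of 402 (111 to 3328). For these 4 genes, ESC libraries held almost no reads and no NPC library came near the ESC levels. Next in order came Syt13, a synaptotagmin, at a log2 fold change of 6.79 ± 0.40 (standard error, as in all values given with ± after a log2 fold change, n = 3 against 3), and Fndc3c1 at 6.73 ± 0.25. They were followed by the endocytic adaptor Dab2 (5.83 ± 0.23), the YAP-binding scaffold Amot (5.82 ± 0.16), the ectonucleotidase Enpp3 (5.76 ± 0.24) and the receptor Fgfr2 (5.50 ± 0.22), whose exons share 314 bases with Ctbp2. The POU factor Pou3f1 (5.09 ± 0.16) and the Wnt effector Lef1 (5.08 ± 0.24) closed this group of 12.

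The strongest fall was that of Jam2 (chr16:84774123-84825928), a junctional adhesion molecule. It stood at 689, 649 and 715 in ESCs and 6.01, 0 and 1.57 in NPCs, a log2 fold change of −8.43 ± 0.30. Cdx1, a homeobox target of Wnt signaling, fell from 1385, 1147 and 1148 to 3.01, 7.81 and 15.7 (−7.15 ± 0.21). Several of the other genes with the largest falls encode transporters and metabolic enzymes. Slc15a1, a peptide transporter, changed by −5.96 ± 0.25 and Aqp3, an aquaglyceroporin, by −5.60 ± 0.17. Cpt1a (chr19:3322334-3385733), which carries fatty acids toward mitochondrial oxidation, had 1139, 1060 and 1112 in ESCs and 42.1, 36.2 and 32.9 in NPCs. Tdh (chr14:63492347-63509092), the threonine dehydrogenase on which mouse ESCs depend, went from 1649, 1602 and 1767 to 64.6, 78.1 and 64.2 (−4.56 ± 0.10). Ggt1, a γ-glutamyltransferase, fell by 3.90 ± 0.15, and the other 5 of the 12 were Klf4, Nr5a2, Bcl3, the small GTPase Mras and the homeobox gene Zfhx2. The largest adjusted p-value of edgeR's test among these 24 genes was 1.34e-13, for Syt13. The genes were picked by their calls, fold changes and lack of overlap, so small p-values and separation are no separate support.

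Of 18 listed naive pluripotency genes, all tested, 15 fell, 2 rose and 1 was not called, with a median log2 fold change of −2.93. The summed level of the list was 25828 to 26399 in ESC libraries and 6320 to 6665 in NPC libraries. Klf4, a Krüppel-like factor, had 1309, 1053 and 1066 normalized counts in ESCs and 48.1, 46.9 and 65.8 in NPCs (−4.45 ± 0.14). Esrrb, an orphan nuclear receptor of the network, went from 3700, 3349 and 3145 to 218, 302 and 241. Nanog, its homeodomain factor, went from 3955, 3917 and 4095 to 490, 516 and 576, a log2 fold change of −2.92 ± 0.09. No library of one state reached the range of the other for these 3 genes, while the NPC levels of Esrrb and Nanog were still far above 0. Besides Jam2, which is on this list too, Prdm14 (−4.75 ± 0.27), Tcl1 (−4.37 ± 0.24) and Nr5a2 (−4.03 ± 0.16) fell further than Esrrb and Nanog, and Zfp42, known as Rex1, less (−2.18 ± 0.12). Dppa5a changed by −0.47 ± 0.14, under the fold cutoff. The 2 genes that rose were Gbx2, from 86.4 to 177 on average (1.06 ± 0.15), whose exons share 946 bases with the antisense gene D130058E05Rik, and Dppa3, from 2.07 to 13.5 (2.57 ± 0.54).

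General pluripotency factors, which the formative epiblast also uses, moved unevenly. Of 9 tested genes, 2 rose, 3 fell and 4 were not called, with a median of 0.01. Pou5f1 (Oct4) went from 2358, 2543 and 2700 to 1332, 1473 and 1555, a fall of 1.74-fold. Sox2, its partner and also a neural factor, fell from 1524, 1276 and 1234 to 355, 471 and 478, a 3.08-fold change. Sall4 spanned 1285 to 1613 in ESCs and 1572 to 1849 in NPCs, so that the groups overlapped, and it was not called. Lin28a, an RNA-binding protein that blocks let-7 maturation, rose from 421, 426 and 487 to 2913, 3220 and 3083 (2.80 ± 0.09). Utf1, a chromatin-associated factor, rose 3.08-fold.

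Formative genes rose: 9 of 11 tested were higher, none lower, with a median of 2.84, which stayed at 2.84 with Fgf5 set at its lower bound. Fgf5, a ligand of the postimplantation epiblast, had no read in the 3 ESC libraries and 45.1, 47.6 and 54.8 normalized counts in NPCs. Taking 3 reads over the ESC group as the limit that a count of 0 allows, it was at least 45.4-fold higher. Otx2, a homeodomain factor of the epiblast and anterior neural plate, rose from 6.08, 3.18 and 7.22 to 126, 131 and 152 (4.72 ± 0.27). Pou3f1 (Oct6) rose from 13.2, 11.1 and 10.8 to 413, 413 and 393. Sox4 and Sox11, SoxC factors of early neural cells that this list also counts, each rose by 3.25 on the log2 scale, and Sall2 by 2.84. Zic2 (0.15 ± 0.13) and Foxd3 (0.56 ± 0.41) were not called.

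De novo DNA methylation genes were part of this change. Dnmt3l, the cofactor of the de novo methyltransferases, rose from 85.1, 62.1 and 90.2 to 1261, 1489 and 1442 (4.19 ± 0.14), with 67 exonic bases shared with Aire. Dnmt3b rose from 238, 255 and 271 to 1742, 1686 and 1744, a 6.80-fold change, and Dnmt3a rose 3.37-fold. Tet1, which oxidizes methylcytosine, fell from 3888, 3446 and 3053 to 1376, 1757 and 1476 (−1.17 ± 0.12), and Tet2 changed by −0.97 ± 0.11. The maintenance genes Dnmt1 (−0.41 ± 0.09) and Uhrf1 (−0.15 ± 0.09) stayed under the cutoffs, so that 3 of the 9 tested genes rose and 2 fell. Of 17 germline genes, several of which are known targets of promoter methylation, 4 rose and 5 fell, with a median of −0.03. Dazl, an RNA-binding protein of germ cells, fell by 1.71 ± 0.19, and Tdrd1, a Tudor protein, rose by 2.21 ± 0.38.

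**Figure D1:**
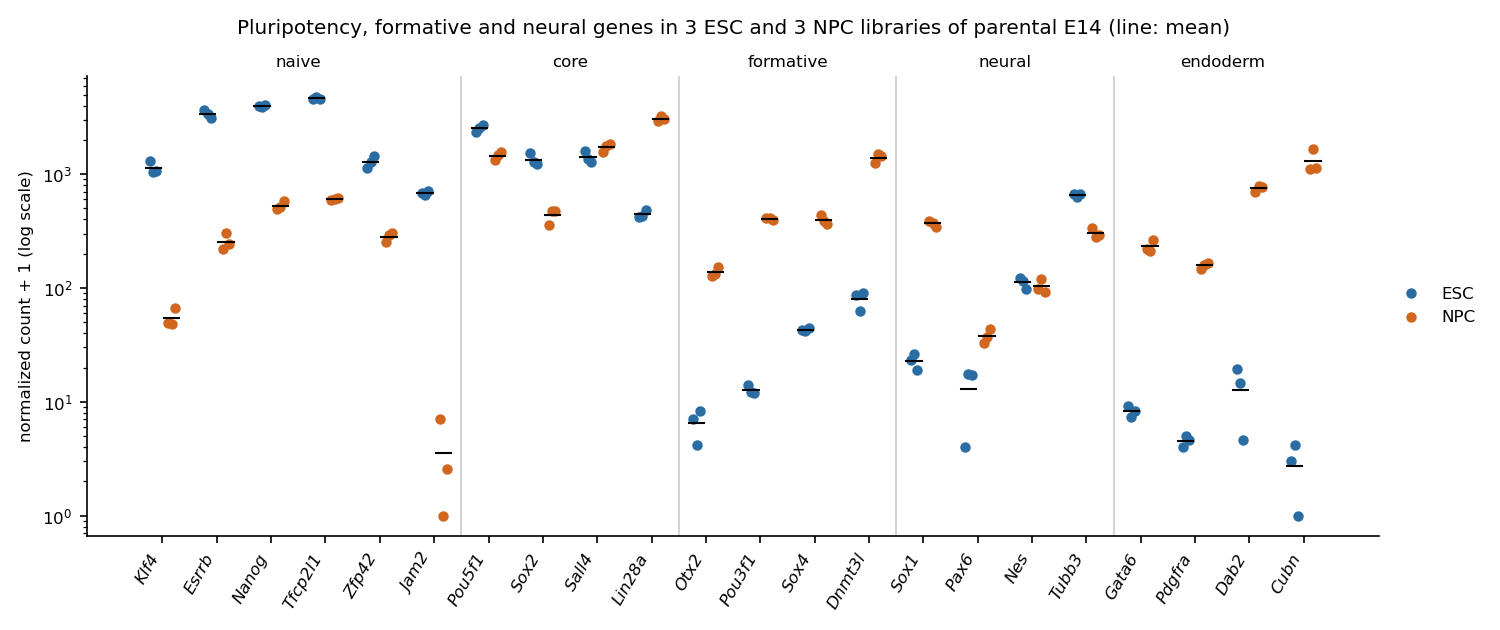
Normalized counts plus 1 (log axis) of 22 genes in the 3 ESC (blue) and 3 NPC (orange) libraries of parental E14, with points for libraries and lines for group means. Naive genes stand lower in NPCs, Pou5f1 falls only by 1.74-fold, Nes and Sall4 overlap between the states, and Sox1 and the endoderm genes stand higher in NPCs.

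The label of the day 2 cells was checked against neural markers, of which some rose and others did not. Sox1 rose from 22.3, 25.5 and 18.05 to 389, 371 and 344 (4.01 ± 0.16), far above every ESC library. Pax6, a paired-box factor of neural progenitors, rose from 3.04, 16.7 and 16.2 to 31.6, 36.2 and 42.3 (1.63 ± 0.35). Nes, the intermediate filament nestin, spanned 97.4 to 121 in ESCs and 90.8 to 119 in NPCs, and did not differ beyond this spread (−0.11 ± 0.15). Hes5, a Notch effector of neural progenitors, had 1 read in the 3 ESC libraries and 1 in the 3 NPC libraries, and Fabp7, a radial glia marker, had 0 and 1. Of the 20 listed neural progenitor genes, 11 passed the filter, of which 8 rose and 1 fell (median 1.63). Those that rose included Sox3 (1.38 ± 0.20), Prom1 (1.83 ± 0.23), Ptprz1 (3.05 ± 0.58) and the growth factor Ptn, with 2 reads in ESCs and 97 in NPCs, a ratio of 50.03 (13.5 to 419). Msi1, an RNA-binding protein of neural stem cells, fell by 1.05 ± 0.11.

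Genes of later neural stages were low or moved in either direction. Of 23 neuronal genes, 13 were tested, of which 4 rose and 3 fell (median 0.03). Dcx, the microtubule protein of migrating neurons, had no read in any of the 6 libraries, and Neurog2, a proneural factor, had 4 reads in ESCs and 2 in NPCs. Tubb3, the β-tubulin used as a neuronal marker, was lower in NPCs, at 335, 280 and 290 against 665, 632 and 673 (−1.13 ± 0.09). Stmn2 (−1.66 ± 0.10) and Mapt (−2.31 ± 0.24) fell with it, while Crmp1 (3.83 ± 0.18), Gap43 (3.13 ± 0.53) and Ina (1.75 ± 0.11) rose, with 456 exonic bases of Ina shared with Nt5c2. Of 10 glial genes, 4 were tested. Slc1a3, the glutamate transporter GLAST of radial glia, rose by 3.51 ± 0.24, Mbp rose by 1.59 ± 0.32, and Aldh1l1 fell by 2.81 ± 0.21. Gfap, with 10 reads in ESCs and 5 in NPCs, and Olig2, with 0 and 1, did not pass the filter.

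Regional identity genes were called in the midbrain, hindbrain, Hox and Cdx lists and not in the forebrain list. Of 11 forebrain factors, 2 passed the filter and neither was called, while Six3 had 0 reads in ESCs and 6 in NPCs. Of 16 midbrain and hindbrain factors, 8 were tested, of which 6 rose and 1 fell (median 2.44). Meis1 (3.41 ± 0.31) and Meis2 (2.53 ± 0.21), cofactors of Hox proteins, and Irx3 (2.23 ± 0.33) rose, whereas En1 had 6 reads and 0, and Irx2 fell by 1.07 ± 0.25. Of 12 tested Hox and Cdx genes, 9 rose and 1 fell (median 1.78). Hoxb1, the earliest gene of its cluster, had 1 read in ESCs and 133 in NPCs, a ratio of 137 (24.2 to 5459). Hoxa5 rose by 3.21 ± 0.24. The gene that fell was Cdx1, while Cdx2 (2.01 ± 0.36) and Cdx4 (3 reads and 43) rose.

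Markers of extraembryonic endoderm, the yolk sac lineage that is set aside from the epiblast, had the highest median among the lists with at least 7 tested genes. Of 18 listed genes, 15 passed the filter, and 14 were higher and none lower, with a median log2 fold change of 3.46. The summed level was 223 to 233 in ESC libraries and 2796 to 3611 in NPC libraries. Gata6, a factor that specifies primitive endoderm, rose from 8.11, 6.36 and 7.22 to 219, 210 and 263 (4.98 ± 0.25). Gata4 rose from 23.3, 23.9 and 27.1 to 129, 175 and 144, and Sox17 from 6.08, 7.96 and 5.41 to 25.6, 38.3 and 50.1. The receptor Pdgfra rose from 3.04, 3.98 and 3.61 to 147, 160 and 164, a 42.6-fold change. Dab2, Cubn, Amn (3.46 ± 0.50), Sox7 (3.76 ± 0.26) and Srgn (3.89 ± 0.37) rose as well, and Foxa2 had 2 reads in ESCs and 94 in NPCs, a ratio of 48.5 (13.1 to 406). The markers of mature visceral endoderm Afp, with 1 read in ESCs and 4 in NPCs, and Ttr, with 1 and 5, did not pass the filter. The part of such cells in the other changes was not tested.

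Other lineages were represented by few genes. Of 19 primitive streak and mesoderm genes, 10 were tested, of which 6 rose and 2 fell (median 1.74). Brachyury (T) fell from 20.3, 15.1 and 16.2 to 1.503, 4.97 and 3.13, while Mixl1, with 14 and 13 reads, and Tbx6, with 7 and 3, did not pass the filter. Meox1, a homeobox gene of somitic mesoderm, rose by 6.24 ± 0.40, and Hand1 had 2 reads in ESCs and 75 in NPCs, a ratio of 38.7 (10.3 to 325). The summed level of the list was 238 to 283 in ESCs and 359 to 443 in NPCs. Of 12 tested genes of surface ectoderm and neural border, 3 rose and 2 fell. Krt18 (1.74 ± 0.14), Gata3 (4.31 ± 0.42) and Grhl2 (3.88 ± 0.23) rose, Krt8 was not called (0.26 ± 0.16), Pax3 had 2 reads in each state, and the fall of Tfap2a (−1.13 ± 0.38) was not called without ESC replicate 1 or without NPC replicate 2 (adjusted p = 0.136 and 0.0893 by edgeR's quasi-likelihood test). The list of blood, endothelium and muscle had 1 tested gene of 9, the adhesion molecule Pecam1, which fell by 2.22 ± 0.13 (2 genes were called without NPC replicate 1 or 3), while Ptprc had 1 and 0 reads and Myod1 0 and 1. Genes of the two-cell-like state rose from near 0 to low levels: 3 of 3 tested genes were called, with a median of 5.62, or 2.49 with genes without ESC reads at their lower bound, among them Zscan4c with 0 reads in ESCs and 25 in NPCs, at least 8.60-fold higher. Zscan4a, also without a read in ESCs, was at least 5.50-fold higher, and Zscan4d had 3 and 18 reads. Without NPC replicate 1 or 3, 5 genes of the list were called. The near-identical Zscan4 copies may share reads, so these values are uncertain.

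**Figure D2:**
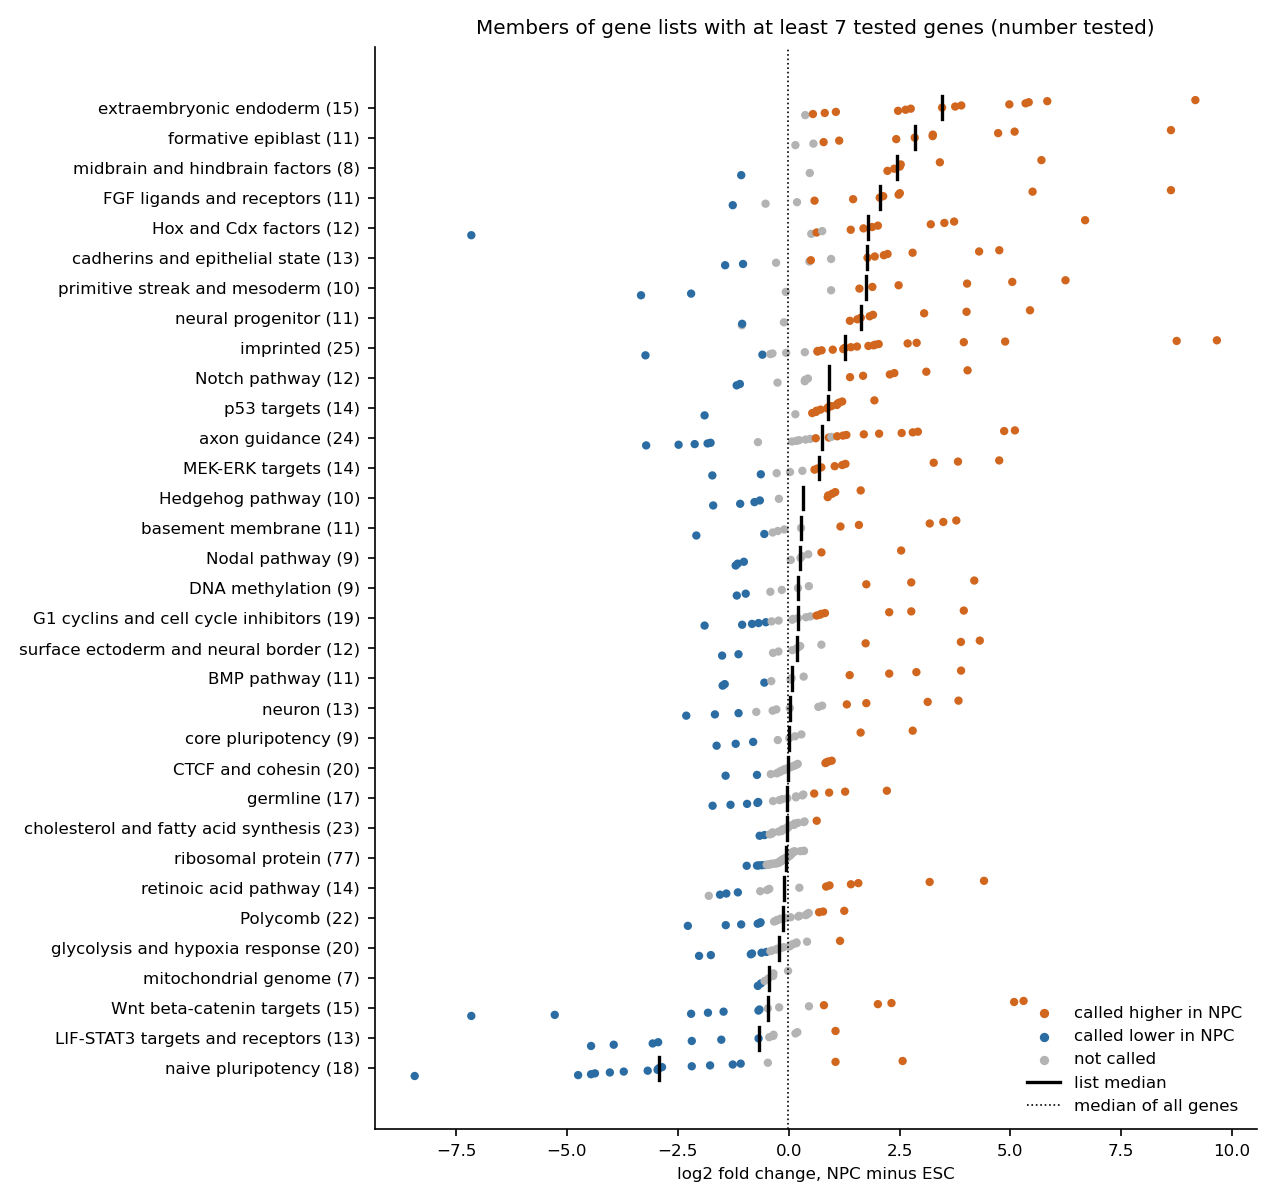
Log2 fold change (NPC minus ESC) of each tested member of the lists with at least 7 tested genes, with the number tested in brackets, a black bar for the list median and a dotted line for the median of all genes (−0.01). Naive pluripotency has the lowest median (−2.93) and extraembryonic endoderm the highest (3.46).

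The 3 signals that the ESC medium acts on were read from their target genes. The promoters below are shown because their genes fell in NPCs and hold a motif for a factor of the Wnt pathway, of the LIF pathway or of the pluripotency network: the TCF/LEF motif CTTTGAT (or ATCAAAG on the other strand) in Sp5, the STAT motif TTCNNNGAA, which reads the same on both strands, in Socs3, and the octamer ATGCAAAT (or ATTTGCAT), bound by POU factors such as Oct4, in Zfp42. Each runs 5′ to 3′ on the strand of the gene, from 250 bases before to 50 after its RefSeq start in GRCm38.p6 (the build called mm10), and capitals mark the motif. Sp5 lies on the forward strand at chr2:70474673-70474972, Socs3 on the reverse strand at chr11:117969317-117969616, and Zfp42 on the reverse strand at chr8:43306960-43307259.
Sp5: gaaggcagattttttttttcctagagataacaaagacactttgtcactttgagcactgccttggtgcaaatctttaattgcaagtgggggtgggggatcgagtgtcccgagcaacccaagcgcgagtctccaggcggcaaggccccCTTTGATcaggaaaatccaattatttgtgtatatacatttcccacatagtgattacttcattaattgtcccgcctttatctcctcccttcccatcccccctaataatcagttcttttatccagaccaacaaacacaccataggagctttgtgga
Socs3: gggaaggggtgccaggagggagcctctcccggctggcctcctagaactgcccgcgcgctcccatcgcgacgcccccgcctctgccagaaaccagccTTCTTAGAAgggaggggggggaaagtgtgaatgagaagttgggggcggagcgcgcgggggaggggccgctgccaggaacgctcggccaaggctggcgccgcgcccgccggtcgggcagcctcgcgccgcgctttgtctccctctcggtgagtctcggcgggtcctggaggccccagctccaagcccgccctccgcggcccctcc
Zfp42: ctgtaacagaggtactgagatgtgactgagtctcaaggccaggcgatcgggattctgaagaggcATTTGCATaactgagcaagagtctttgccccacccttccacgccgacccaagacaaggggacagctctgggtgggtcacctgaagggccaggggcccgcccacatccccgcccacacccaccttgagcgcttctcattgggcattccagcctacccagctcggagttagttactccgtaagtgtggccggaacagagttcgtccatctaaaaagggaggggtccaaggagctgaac
Of 12989 RefSeq promoters of this length, which belong to 10143 of the tested genes, 2.48% hold the TCF/LEF motif, 6.47% the STAT motif and 1.40% the octamer. Among promoters of genes lower in NPCs the shares were 3.21%, 6.47% and 1.54%, and among those of genes higher in NPCs 2.29%, 6.32% and 2.06%. The Wnt target list had the TCF/LEF motif in 2 of its 17 promoters (Sp5 and Tnfrsf19), the LIF-STAT3 list had the STAT motif in 2 of 14 (Cish and Socs3), and the naive list had the octamer in 1 of 14. A match is a description of the letters, and these windows hold no enhancers.

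Wnt/β-catenin targets split. Of 15 tested genes, 7 fell and 5 rose (median −0.47). The negative feedback gene Axin2 fell from 406, 341 and 307 to 122, 84.5 and 103 (−1.82 ± 0.14). Sp5, the zinc finger factor shown above, fell from 117, 93.9 and 106 to 1.503, 1.42 and 6.26, a 38.7-fold change, so that every NPC library held few of its reads. Cdx1 and T fell as given above, and the Wnt deacylase Notum (−1.47 ± 0.18, with 708 exonic bases shared with Notumos) and the effector Tcf7 (−0.68 ± 0.13) fell too. The genes that rose were Lef1, from 9.12, 7.96 and 3.61 to 265, 239 and 276, the inhibitor Dkk1, with 1 read in ESCs and 50 in NPCs (ratio 51.6, 8.84 to 2078), Cdx2, Sp8 (2.32 ± 0.34) and Bambi (0.80 ± 0.20). The TCF/LEF genes on this list thus moved in opposite directions, Tcf7 downward and Lef1 upward, and other members of that family are not on it.

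MEK-ERK targets were mostly higher, with 9 of 14 tested genes up and 2 down (median 0.69). Dusp6, the ERK phosphatase, rose from 108, 106 and 93.8 to 1010, 1008 and 993, a 9.65-fold change. Dusp4, another ERK phosphatase, rose from 25.3, 15.1 and 12.6 to 495, 506 and 474 (4.75 ± 0.16). The immediate early gene Egr1 rose from 2.03, 3.18 and 0 to 19.5, 40.5 and 29.7. The feedback inhibitors Spry4 (1.04 ± 0.13), Spry2 (0.58 ± 0.10) and Spred1 (1.21 ± 0.09) rose less. The ETS factor Etv4 was lower, at 579, 541 and 525 against 974, 776 and 785, a change of −0.63 ± 0.10 that was not called without ESC replicate 1, and its relative Etv5 was not called (−0.27 ± 0.07). FGF ligands and receptors moved likewise, with 8 of 11 tested genes higher and 1 lower (median 2.05). Fgf4, the ligand made by ESCs, fell from 585, 512 and 601 to 232, 223 and 255. The receptor Fgfr2 rose from 5.07, 5.57 and 10.8 to 293, 305 and 293, Fgfr3 rose by 2.13 ± 0.30 and Fgfr1 by 0.58 ± 0.08.

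LIF-STAT3 genes fell, with 7 of 13 tested genes lower and 1 higher (median −0.68). Socs3, the feedback inhibitor of the receptor complex, fell from 331, 282 and 271 to 21.0, 42.6 and 36.0 (−3.07 ± 0.19). Stat3, which shares 72 exonic bases with Stat5a, fell from 806, 751 and 724 to 167, 167 and 169, a 4.54-fold change, and Bcl3, a nuclear IκB protein, fell from 472, 356 and 350 to 18.04, 30.5 and 23.5. The receptor subunits Lifr (−1.52 ± 0.12) and Il6st (−0.68 ± 0.08) fell as well, and so did Klf4 and Tfcp2l1, which are on the naive list too. Pim1 (−0.44 ± 0.08) and Socs2 (0.20 ± 0.13) were not called, and the gene that rose was Gbx2.

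**Figure D3:**
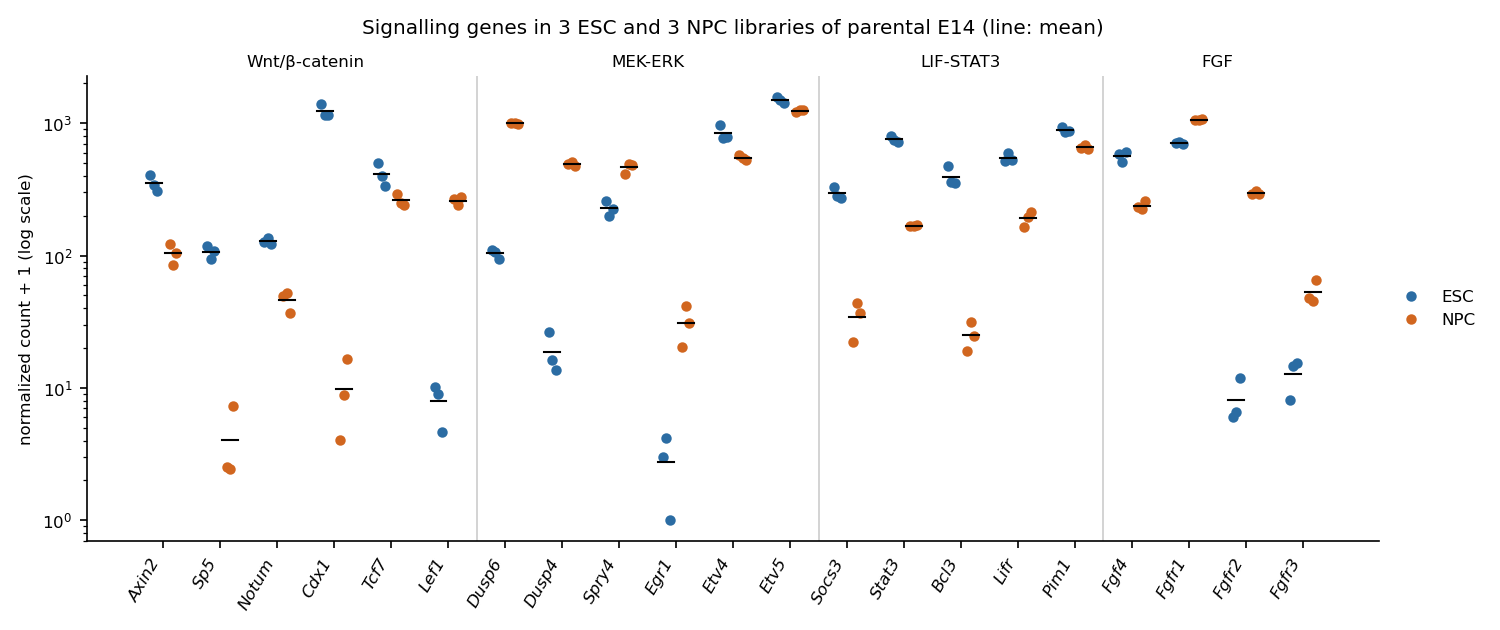
Normalized counts plus 1 (log axis) of 21 signaling genes in the 3 ESC (blue) and 3 NPC (orange) libraries of parental E14, with points for libraries and lines for group means. Axin2, Sp5, Cdx1, Socs3, Stat3 and Bcl3 stand lower in NPCs, and Lef1, Dusp6, Dusp4, Egr1 and Fgfr2 stand higher.

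Other developmental pathways gave mixed counts. In the Notch pathway 6 of 12 tested genes rose and 2 fell (median 0.91): the ligand Dll1 rose by 3.10 ± 0.33, Lfng by 4.03 ± 0.37 and Notch3 by 2.38 ± 0.14, whereas Notch1 fell by 1.10 ± 0.14 and Hes1 by 1.17 ± 0.17. In the BMP pathway 4 of 11 rose and 3 fell, the targets Id1 (2.27 ± 0.22), Id2 (3.89 ± 0.26) and Id3 (1.38 ± 0.26) upward, and Bmp4 (−1.49 ± 0.17) and Smad7 (−1.44 ± 0.09) downward. In the Nodal pathway 2 of 9 rose and 3 fell. Its antagonists moved in opposite directions, with Lefty1 from 363, 342 and 397 to 2351, 2159 and 1838 and Lefty2 at −1.15 ± 0.09, while Nodal was not called (0.30 ± 0.08). Of 14 tested retinoic acid genes, 6 rose and 3 fell. The degrading enzyme Cyp26a1 rose by 4.41 ± 0.33 and the binding protein Crabp2 by 3.18 ± 0.30, Crabp1 fell by 1.55 ± 0.22, and Rarb, of which 1793 exonic bases are shared with Top2b, was not called. Of 10 tested Hedgehog genes, 5 rose and 4 fell, with the effector Gli2 at −1.70 ± 0.14, Gli3 at 0.98 ± 0.11, the transducer Smo at 0.88 ± 0.09 and the receptor Ptch1 not called (−0.22 ± 0.09).

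Adhesion and matrix genes changed in composition. Of 13 tested cadherin and epithelial genes, 8 rose and 2 fell (median 1.78). E-cadherin (Cdh1) went from 4400, 4096 and 4060 to 3363, 3514 and 3434, under the fold cutoff (−0.28 ± 0.07), while N-cadherin (Cdh2) rose from 14.2, 15.9 and 16.2 to 85.7, 111 and 124. The epithelial splicing factor Esrp1 rose from 10.1, 6.36 and 5.41 to 216, 203 and 196 (4.75 ± 0.20), Epcam by 1.94 ± 0.10, Cldn6 by 2.23 ± 0.12 and Zeb2 by 2.15 ± 0.25, whereas Fn1 fell by 1.43 ± 0.12 and Zeb1 by 1.03 ± 0.16. Of 11 basement membrane genes, 5 rose and 2 fell. Lamb1, a laminin β chain, rose from 95.3, 69.2 and 92.0 to 1063, 1258 and 1124, and Col4a1, a type IV collagen chain whose exons share 22 bases with Col4a2, from 149, 142 and 144 to 1452, 1716 and 1704. Nid1, nidogen, fell by 2.08 ± 0.12. Of 24 tested axon guidance genes, 12 rose and 5 fell (median 0.76). Sema3e (5.10 ± 0.38) and the ephrin Efnb2 (4.86 ± 0.21) led the rises, and Ntn1 (−3.21 ± 0.20), Robo1 (−2.48 ± 0.14) and Nrp2 (−2.12 ± 0.15) led the falls.

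Imprinted genes, which are expressed from the maternal or the paternal copy, rose in 19 of 25 tested cases and fell in 2 (median 1.27, also with Igf2 at its lower bound). Peg10 (chr6:4747306-4760517), a retrotransposon-derived gene, went from 1096, 1081 and 1027 normalized counts to 29060, 34352 and 31068, a log2 fold change of 4.88 ± 0.19. Igf2, the growth factor next to H19, had no read in ESCs and 33.1, 66.0 and 54.8 normalized counts in NPCs, at least 51.6-fold higher, with 98 exonic bases shared with Igf2os. Mest (2.03 ± 0.10, with 912 exonic bases shared with Copg2), Peg3 (1.54 ± 0.11), Rian (1.40 ± 0.12), Meg3 (0.99 ± 0.14) and Cdkn1c (3.95 ± 0.58) rose as well. Plagl1, a zinc finger factor, fell from 962, 709 and 760 to 67.6, 102 and 79.9 (−3.23 ± 0.17), and Kcnq1ot1 changed by −0.59 ± 0.12, a call that was lost without ESC replicate 2. The genes whose RNAs the study truncates in other lines were both higher in NPCs. Podxl (chr6:31519488-31563981), which encodes the sialomucin podocalyxin, rose from 157, 162 and 123 to 1078, 1148 and 1204. Grb10 (chr11:11930508-12038683), an imprinted adaptor of growth factor receptors, rose from 591, 584 and 547 to 3572, 3728 and 3783.

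Cell cycle and p53 target genes showed a divided pattern. Of 14 tested p53 targets, 12 rose and 1 fell (median 0.88): Mdm2 went from 408, 409 and 422 to 711, 773 and 811, Ccng1 rose by 1.14 ± 0.10 and Plk2 by 1.93 ± 0.18, whereas Cdkn1a, which encodes the inhibitor p21, fell from 1273, 1060 and 1083 to 334, 310 and 272 (−1.90 ± 0.09). Of 19 G1 regulators, 7 rose and 5 fell, with Myc (2.76 ± 0.19), Ccnd2 (2.27 ± 0.13) and Ccnd1 (0.74 ± 0.09, with 1100 exonic bases shared with LTO1) upward and Rbl1 (−1.05 ± 0.11), Ccnd3 (−0.83 ± 0.09) and Cdk6 (−0.68 ± 0.16) downward.

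Housekeeping and chromatin lists are read against the 32.8% of all tested genes that were called. Of 20 tested genes of CTCF and cohesin, 4 rose and 2 fell (median −0.02). Ctcf stood at 1076, 1064 and 1085 in ESCs and 1015, 979 and 1008 in NPCs (−0.10 ± 0.07, adjusted p = 0.253 by edgeR's quasi-likelihood test), and Rad21, Smc3 and Smc1a were not called. Stag2, a cohesin subunit, rose from 427 to 827 on average (0.97 ± 0.10) and the meiotic Stag3 fell by 1.42 ± 0.12. Of 22 tested Polycomb genes, 3 rose and 6 fell: Ezh2 was not called (−0.07 ± 0.08) and Kdm2b, which shares exonic bases with Rnf34 and A930024E05Rik, rose by 1.25 ± 0.10. Of 20 glycolysis genes, 1 rose and 6 fell, among them Pfkp (−2.02 ± 0.09, with 748 exonic bases shared with Pitrm1), Hk1 (−1.75 ± 0.09) and Hk2 (−0.85 ± 0.10). Of 23 genes of cholesterol and fatty acid synthesis, 1 rose (Fasn, 0.63 ± 0.10) and 2 fell, and of 77 ribosomal protein genes, none rose and 5 fell (median −0.07), or 3 without ESC replicate 1. Mitochondrially encoded RNAs varied widely between libraries. mt-Co1 had 5063, 3815 and 2703 normalized counts in ESCs and 2996, 1403 and 3612 in NPCs, and of the 7 tested genes of the list 2 were called lower, a count that ran from 0 to 6 when single libraries were left out: 0 without ESC replicate 1 or 2 or without NPC replicate 1 or 2, 4 without ESC replicate 3 and 6 without NPC replicate 3. The other 6 of the 13 genes on this list are listed at 0 in every library.

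By position, the X chromosome held the largest share of genes called higher, 133 of 473 tested (28.1%), against 10.5% to 21.2% on the 19 autosomes, while 12.1% were lower, against 11.7% to 19.8%. Its median log2 fold change was 0.07, at the upper end of the autosomal range of −0.11 to 0.07. Amot and Fndc3c1 (named above) are X-linked. By biotype, protein-coding genes were called higher in 17.1% and lower in 16.3% of 12204 genes, and lincRNAs in 15.0% and 21.2% of 160. The median exonic length was 4532 bases for genes called higher, 4093 for genes called lower and 4418 for the rest.

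**Figure D4:**
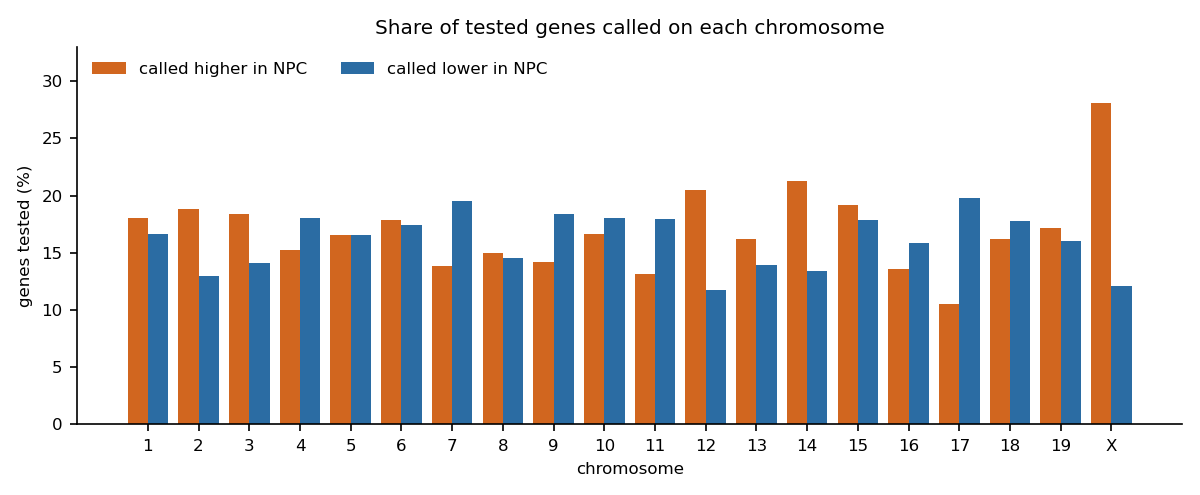
Share of tested genes (percent) on each chromosome called higher (orange) or lower (blue) in NPCs of parental E14. The X chromosome has 28.1% higher, above the 10.5% to 21.2% of the autosomes.

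To see how far the response of parental E14 was shared, it was set beside that of the other lines by testing the difference between the responses. In Podxl pA, 4224 genes (31.8%) were called between ESCs and NPCs. Of the 4351 genes called in parental E14, 3276 were called in the same direction there, which is 75.3% of the parental and 77.6% of the Podxl pA calls, and 4 in the opposite direction. Across 13268 genes the fold changes of these lines, which share no library, had a Pearson r of 0.911. The difference itself was called for 13 genes (0.098%), 4 with a higher and 9 with a lower log2 fold change in parental E14. The targeted gene checked the label: Podxl stood at 13.98, 15.97 and 59.8 in Podxl pA ESCs and 104, 113 and 96.8 in Podxl pA NPCs, below parental E14 in each state. ESC replicate 3 of Podxl pA stood apart also in Cubn (52.7, against 0 and 4.36) and Car4 (47.9, against 1.08 and 4.36), and without it 25 genes differed. The 5 largest negative differences were of mitochondrial RNAs, from −2.87 ± 0.37 for mt-Nd4 to −2.26 ± 0.38 for mt-Co1, and Podxl pA NPCs held 9222 to 10471 normalized counts of mt-Co1 and its ESCs 2333 to 3918. The 4 genes with a higher log2 fold change in parental E14 were Ccn2 (1.36 ± 0.24), Cnn2 (1.13 ± 0.18), Tubb3 (0.66 ± 0.12) and Lin28a (0.63 ± 0.12). The differences of Ccn2, Tubb3 and Lin28a were not called without ESC replicate 1 or ESC replicate 2 of parental E14 or ESC replicate 2 of Podxl pA. That of Tubb3 was also lost without ESC replicate 1 or NPC replicate 2 or 3 of Podxl pA or NPC replicate 1 of parental E14, and that of Lin28a without NPC replicate 2 of either line.

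In Grb10 pA, 4590 genes (34.6%) were called, 3080 of them in the parental direction (70.8% of the parental and 67.1% of the Grb10 pA calls) and 17 in the opposite direction, with r = 0.870 across genes. The response differed in 783 genes (5.9%), 404 higher and 379 lower in parental E14, and in 506 without NPC replicate 2 of parental E14. Grb10 itself stood at 157, 141 and 164 in Grb10 pA ESCs and 276, 243 and 242 in Grb10 pA NPCs, below parental E14, and its response differed by 1.96 ± 0.13. Sox1 rose to 102, 141 and 114 in Grb10 pA NPCs, against 344 to 389 in parental NPCs, from ESC levels of 26.1, 33.7 and 33.03, and its response was 2.08 ± 0.26 higher in parental E14. Gata6 (1.77 ± 0.44), Gbx2 (1.78 ± 0.21) and the histone gene H3f4 (2.21 ± 0.33) also had higher log2 fold changes in parental E14. That of the retinoic acid-induced receptor gene Gprc5a was lower (−2.66 ± 0.25). For 2 of these genes the signs were opposite. Gbx2 changed by 1.06 in parental E14 and −0.72 in Grb10 pA, and Gprc5a by −0.69 and 1.96. The call for Gata6 was lost without ESC replicate 2 of parental E14 or ESC replicate 1 of Grb10 pA. All 7 tested genes of the mitochondrial list and 8 of 18 naive genes differed, while 14 of 15 endoderm genes rose in Grb10 pA as they did in parental E14. Among the mitochondrial RNAs, mt-Co1 (−1.75 ± 0.38) and mt-Nd4 (−1.71 ± 0.38) differed whichever single library was left out. Gm24265 (−1.83 ± 0.50) and mt-Nd2 (−1.75 ± 0.46) also differed, but neither was called without ESC replicate 1, NPC replicate 1 or NPC replicate 2 of parental E14 or NPC replicate 2 of Grb10 pA, and Gm24265 also not without ESC replicate 3 of Grb10 pA.

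The endoderm list was summed in each line to compare its level. It was 214 to 335 in ESCs and 5869 to 6123 in NPCs of Podxl pA, and 218 to 237 in ESCs and 2420 to 3058 in NPCs of Grb10 pA. The NPC sums of parental E14, 2796 to 3611, thus overlapped those of Grb10 pA and lay below those of Podxl pA.

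The WT rescue line differed more. There 6825 of 14742 genes (46.3%) were called. Of the 4351 parental calls, 2390 had the same direction (54.9% of the parental and 35.0% of the rescue calls) and 347 the opposite, with r = 0.587 over 13268 genes. The rescue calls include genes not tested in parental E14, so the 35.0% is not like the shares of Podxl pA and Grb10 pA. Among the 13268 genes, 3203 were called higher and 2970 lower in WT rescue. The difference was called for 5188 genes (35.2%), 2618 higher and 2570 lower in parental E14. The line, the treatment, the depth and the sequencing experiment all differ between these groups and cannot be told apart. All 18 naive genes fell in WT rescue, against 15 in parental E14. The log2 fold change of Pou5f1 was 2.19 and that of Sox2 1.57 higher in parental E14 than in WT rescue. Of the endoderm list, 13 of 17 genes differed, 12 of them with a higher log2 fold change in parental E14, led by Cubn (7.04 ± 0.88). Surface ectoderm went the other way: 14 of 15 tested genes rose in WT rescue. Of these 15, 10 differed, all with a lower log2 fold change in parental E14, led by Krt8 (−4.64 ± 0.29). Car4 (6.15 ± 1.06), H19 (4.66 ± 1.17) and Thbs1 (4.53 ± 0.87) also had higher log2 fold changes in parental E14, and so did Tdgf1-ps1, at −1.14 against −6.20 in WT rescue (5.07 ± 0.40). Those of Cdx1 (−4.77 ± 0.37), Nrp2 (−3.73 ± 0.20), Anxa2 (−3.47 ± 0.23) and Jam2 (−3.44 ± 0.75) were lower in parental E14.

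**Figure D5:**
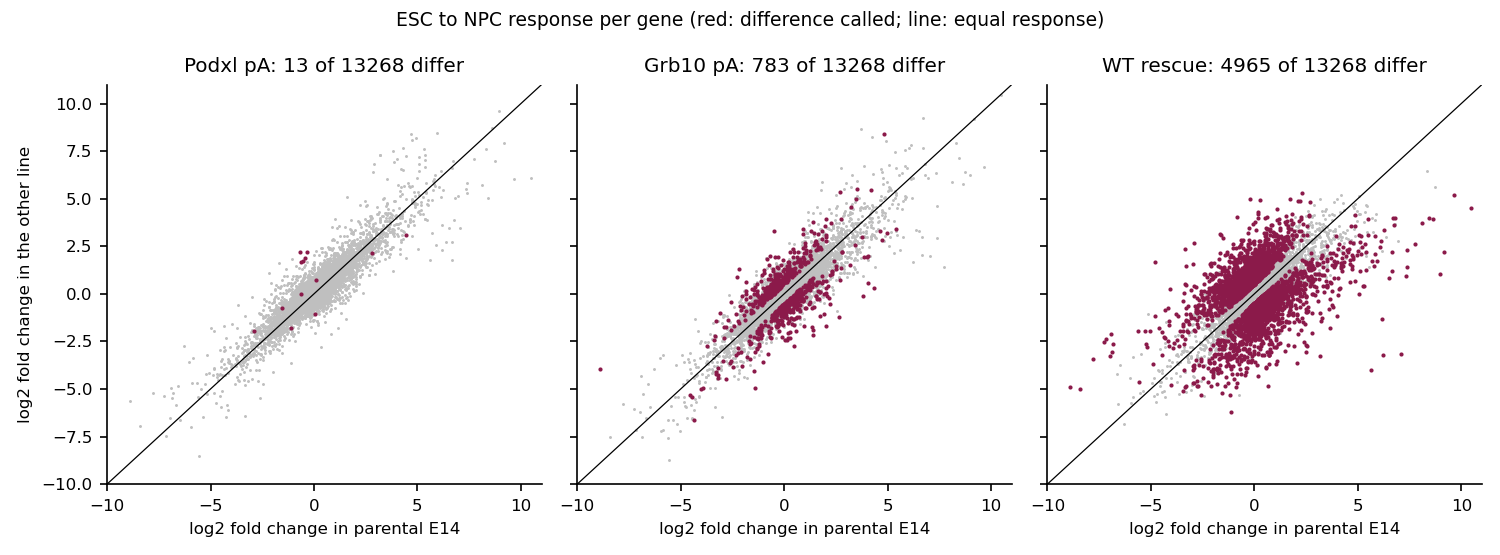
Log2 fold change from ESC to NPC of 13268 genes in parental E14 (x axis) and in Podxl pA, Grb10 pA or WT rescue (y axis), with genes whose responses differ in red and the line of equal response. The points lie nearest the line for Podxl pA (r = 0.911) and spread most for WT rescue (r = 0.587).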

How the data were processed

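RNA was rRNA-depleted and sequenced with a directional kit. Reads were aligned to mm10 by the authors using STAR, and counts per gene came from featureCounts in the sns pipeline. The deposited tables hold raw counts of whole reads, named as unstranded, so overlapping genes on opposite strands cannot be told apart. In the table used here, 3 further columns matched no sample and were not used.

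The 18 libraries of parental E14, Podxl pA and Grb10 pA were fitted in 1 model with edgeR 4.0.16 in R 4.3.3 (TMM, filterByExpr, quasi-likelihood F test, a mean for each group). The comparison with WT rescue used a joint model of both tables with all 26 libraries. Standard errors were taken as the absolute log2 fold change over the root of F. Of 13268 tested symbols, 13028 matched a single GENCODE M21 gene, which gave positions and exonic lengths. DESeq2 1.42.0, RLE normalization, other filters and cutoffs, thinned counts, left-out libraries and a replicate term were alternatives. Scripts were tested on simulated counts.

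Members and lists were chosen with earlier results of these data known. Eligible for naming were the key genes of each list, up to 4 further called members in each direction, the 12 largest rises and falls with a mean of at least 100 and no overlap between groups, and the 5 largest differences in each direction per line. Some of these are printed, with other list members named for their counts. A group without reads was taken to allow 3 reads over its libraries. Intervals of ratios cover counting error only. Some list members are not reported here.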

Additional observations from a re-analysis of the deposited data

Results flagged for a closer look

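The response from ESC to NPC differed between parental E14 and each other line by a test of the difference itself (edgeR's quasi-likelihood test with Benjamini-Hochberg adjustment). It did so for 13 genes in Podxl pA, 783 in Grb10 pA and 5188 in WT rescue. Differences below are log2 values, parental E14 minus the other line.

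Against Podxl pA, the log2 fold change was higher in parental E14 by 1.36 for Ccn2, 1.13 for Cnn2, 0.66 for Tubb3 and 0.63 for Lin28a. Mitochondrial RNAs gave −2.87 (mt-Nd4), −2.56 (mt-Cytb), −2.32 (mt-Nd5), −2.27 (mt-Nd6) and −2.26 (mt-Co1).

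Against Grb10 pA, the values were 2.21 for H3f4, 2.08 for Sox1, 1.96 for Grb10, which is truncated in that line, 1.78 for Gbx2 and 1.77 for Gata6. They were −2.66 for Gprc5a, −1.83 for Gm24265, −1.75 for mt-Nd2, −1.75 for mt-Co1 and −1.71 for mt-Nd4.

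Against WT rescue, the values were 7.04 for Cubn, 6.15 for Car4, 5.07 for Tdgf1-ps1, 4.66 for H19 and 4.53 for Thbs1. They were −4.77 for Cdx1, −4.64 for Krt8, −3.73 for Nrp2, −3.47 for Anxa2 and −3.44 for Jam2.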

How the results depend on the processing

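The count of 4351 genes called in parental E14 stayed within 1.5 times under most alternatives: 4162 with DESeq2 (4113 in common and in the same direction), 4349 with RLE normalization, 4651 without a filter, 3780 at an adjusted p of 0.01, 3505 with counts thinned to the smallest library and 3952 with only the compared libraries fitted. It was 2433 (1343 higher, 1090 lower) at a log2 cutoff of 1, and 2683 (1243 higher, 1440 lower) with at least 10 counts in every library, where fewer genes were tested. Leaving out single libraries gave 4020 to 4444 genes, 2096 to 2272 higher and 1907 to 2172 lower. Without the 3 rRNA-like entries, an alternative chosen after seeing the data, 4346 were called.

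The difference from Podxl pA moved most, from 13 genes to 6 at an adjusted p of 0.01 or with thinned counts, 7 at a log2 cutoff of 1, 46 with DESeq2, 56 with only the compared libraries and 108 without a filter; the cause was not tested. Leaving out single libraries gave 6 to 28: 6 without ESC replicate 2 of Podxl pA, 7 without ESC replicate 1 or 2 of parental E14 or NPC replicate 2 of Podxl pA, 25 without ESC replicate 3 of Podxl pA and 28 without ESC replicate 3 of parental E14. The difference from Grb10 pA was 314 at an adjusted p of 0.01, 299 at a log2 cutoff of 1 and 394 with thinned counts, and 506 to 943 without single libraries. The difference from WT rescue was 2768 at a log2 cutoff of 1.

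For the response of parental E14 and its differences from the other lines, no called gene was called in the opposite direction under another setting. Signs of some other values did change when single libraries were left out. The log2 fold change of mt-Nd1 ran from −0.42 to 0.30. Among the list medians that changed sign were those of blood, endothelium and muscle (−2.23 to 0.25), neuron (−0.20 to 0.38) and retinoic acid (−0.15 to 0.02). Of the fold changes of named genes, 4023 values kept their side of the thresholds, 126 lost the call and 6 gained it. Gli1, mt-Nd4, mt-Nd6, Bmp7, Dll3, E2f1 and Vim lost it under several settings. Over the lists, the number of called members stayed within 1.5 times in 552 values and moved in 51, of which 19 came with at least 10 counts in every library (17 lists did not move) and 11 with a log2 cutoff of 1. List medians moved in 66 of the alternatives and not in 461, with 16 of the 66 under at least 10 counts. Without single libraries, the count moved only in the mitochondrial, ribosomal, two-cell-like and blood lists. Same-numbered ESC and NPC libraries did not deviate together (correlations −0.067, −0.011 and −0.050). Deviations from means of 3 libraries cannot tell whether the numbers pair cultures. With a replicate block, 4333 genes were called in parental E14 (4303 in common), and 11, 697 and 5196 differed from Podxl pA, Grb10 pA and WT rescue. Libraries of 2530435 to 6513043 reads leave genes with few reads untested.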
